A study of Mus musculus with 11 samples.

Results

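The livers of mice that had received both NICD1 and NICD2, the intracellular domains of Notch1 and Notch2, were compared with the livers of mice that had received GFP alone, on 2 NICD1&2 arrays and 3 GFP arrays of the 11 arrays of the study. All mice were C57Bl6/J males of 8 weeks at injection. The vector was AAV8, an adeno-associated virus with high uptake in liver, given by the intraperitoneal route, and liver RNA was taken 5 days later. Every animal received 6e+11 viral genomes (vg). In the GFP group this was GFP vector alone, and in the NICD1&2 group it was 3e+11 vg of NICD1 vector with 3e+11 vg of NICD2 vector. A mouse of the single groups, NICD1 or NICD2 with 3 arrays each, was given 3e+11 vg of its NICD vector and 3e+11 vg of GFP. The NICD1&2 group thus had no GFP vector, and its total NICD dose was the higher one, so the loss of the GFP vector and the gain of the NICD vectors cannot be told apart in it. No group was free of virus. The vectors carried the CMV promoter, which is not specific to hepatocytes, and the labels do not say whether each array was a separate animal, so that p-values measure only the spread between these arrays.

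Notch receptors are cleaved when a ligand on a neighbouring cell binds them, and the freed intracellular domain (NICD) enters the nucleus. There it joins the DNA-binding protein RBPJ and a Mastermind coactivator and switches on genes such as those of the Hes and Hey repressors and the feedback inhibitor Nrarp. In liver the pathway is known for directing precursor cells toward the bile duct fate, with Sox9 and osteopontin (Spp1) among the genes that mark it. A NICD supplied by a vector needs neither ligand nor cleavage.

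Each level below is the log2 signal of a probe relative to the 75th percentile of its array, so that 0 is the level of the 75th percentile and a difference of 1 is a doubling. Of 56605 non-control probes, 36052 reached a signal clearly over background on 2 or more of the 11 arrays and were tested, and 24037 of these carried a gene name, for 16632 genes. All 30 hepatocyte markers on the list, such as Alb and Hnf4a, were well above background on all 11 arrays. Arrays GFP 1 and NICD2 2 stood apart at the dim end, and their deviations from their group means correlated at 0.466 over probes. The 9013 dimmest tested probes had a median level of -4.84 on GFP 1, -4.05 on GFP 2, -4.24 on GFP 3, -4.02 on NICD1&2 1 and -4.06 on NICD1&2 2, and of -4.59 on NICD2 2 and -4.29 to -4.13 on the other 5. Some counts that rest on dim probes are therefore given without GFP 1 as well.

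Wfdc3, Tmprss7, Scgb1a1, Pnliprp1 and Krt79, named genes that were faint or below background in the GFP livers, had the highest changes with both NICDs among those at an adjusted p under 0.05. At a Benjamini-Hochberg adjusted p under 0.05 in limma, 36 probes differed between the NICD1&2 and GFP groups, which was 0.0999% of those tested, and 29 of them were higher and 7 lower with both NICDs. The higher probes stood for 22 named genes and the lower probes for 7. On all 36 probes the NICD1&2 arrays lay outside the range of the GFP arrays. The probes were chosen for their difference between these same arrays, so this is a description. Among all genes tested, the NICD1&2 arrays lay above all GFP arrays for 26.0% and below for 10.9%. The split of directions moved with the processing, since higher probes were 80.6% of these 36, 58.3% of the 36 after quantile normalization, 49.6% of 335 with normexp background correction and 29.5% of 237 without NICD1&2 1. The normexp setting was quantile normalized as well, so these changes of processing cannot be told apart in it. The list of 36 probes also moved with single arrays. Without NICD1&2 1 it held 237 probes, of which 28 were among the 36, and without NICD1&2 2 only 4, with the lone array taken to vary like the other groups. It held 18 probes without GFP 1, 18 without GFP 2, 17 without NICD1 2, 20 without NICD2 2 and 23 without NICD2 1. The 4 probes that passed without NICD1&2 2 were those of Wfdc3, Krt79, Slc10a6 and the unnamed probe A_66_P115236. The arrays lay on 2 slides, with GFP 1, GFP 2 and NICD1&2 1 on the first and GFP 3 and NICD1&2 2 on the second. Within each slide all 29 named genes kept their direction. This was fixed in advance, since for each gene the NICD1&2 arrays lay on 1 side of all GFP arrays. Wfdc3 differed by 4.89 and 5.86 (log2) on the first and second slide and Krt79 by 3.24 and 3.79.

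By the study's own definition, an unadjusted P under 0.15 with a fold change over 1.8, 2250 probes (6.24%) were altered, 1730 higher and 520 lower, but their median adjusted p was 0.329. Only 412 of the 1730 and 179 of the 520 were well above background on all 5 arrays. The excess of higher probes depended on the scaling and on single arrays, GFP 1 among them. The raw 75th percentile that sets the scale was 149.79 and 140.6 on the NICD1&2 arrays, below the 154.51 to 198.09 of the others. Its part in the excess was not tested. Higher probes made up 76.9% of the altered ones, but 47.3% of 1973 after quantile normalization and 51.8% of 1331 without GFP 1. Without GFP 2 the count was 3599. At an unadjusted P under 0.05, with no fold limit, 5343 probes (14.8%) passed. The median difference over all tested genes was 0.116 (log2), and 0.015 after quantile normalization, and differences of this size in the lists below do not stand apart from that shift.

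**Figure D1:**
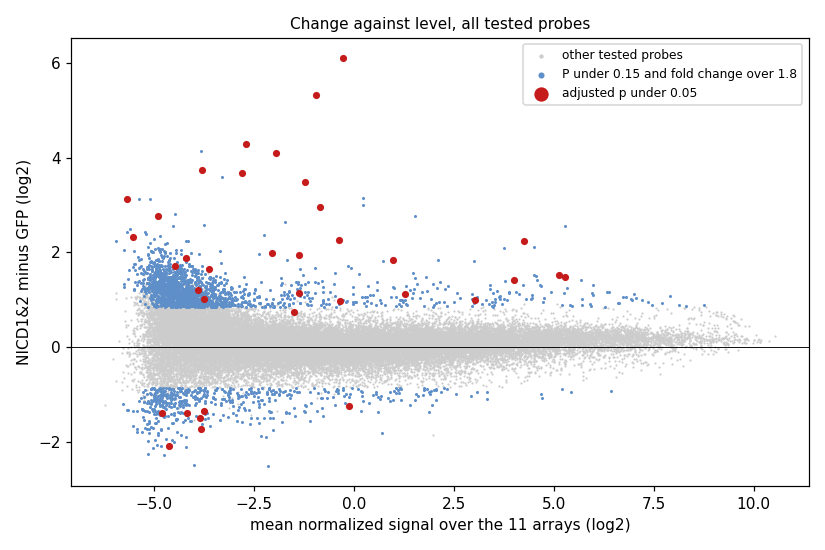
Difference between the NICD1&2 and GFP groups (log2, vertical axis) against the mean level over the 11 arrays (log2, horizontal axis) for the 36052 tested probes. The 36 probes at an adjusted p under 0.05 are red, and the other probes altered by the study's definition are blue and crowd at the dim end, on the higher side.

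Promoters of 12 of the 15 named genes with the highest change at an adjusted p under 0.05 were in the RefSeq table used here (build GRCm38.p6), which holds 250 bases before and 50 after each start. The core RBPJ motif, TGGGAA on either strand, was present in the promoters of 6 of these 12 genes, and in 25.6% of all 32851 promoters, or those of 28.3% of all 27025 genes in the table, some of which have several. The longer form GTGGGAA, which contains the core, was present in 4 of the 12, in 6.38% of all promoters and in those of 7.25% of all genes. Spin4, which had passed the filter only through the NICD1&2 arrays, was among both, and without it the counts were 5 and 3 of 11. Of the 7 other induced genes, all in the table, 2 held the core and 1, Adamtsl2, the longer form, and the promoter of the Notch target Nrarp held 0 cores. Of the 7 genes that fell and the next 3 in order of P, all in the table, 2 held the core and 0 the longer form. The 4 promoters with the longer form are shown because they belong to genes that were among the most induced by both NICDs together. Each runs 5′ to 3′ along the gene's own strand from 250 bases before the start to 5 bases past it, with each core motif, read on either strand, in capitals.
Wfdc3 (chr2:164743263-164743517, minus strand): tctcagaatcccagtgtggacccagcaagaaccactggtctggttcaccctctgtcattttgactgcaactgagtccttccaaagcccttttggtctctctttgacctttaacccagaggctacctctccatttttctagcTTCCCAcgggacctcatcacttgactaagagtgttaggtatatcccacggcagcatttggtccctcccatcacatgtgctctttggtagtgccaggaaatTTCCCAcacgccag
Pnliprp1 (chr19:58728637-58728891, plus strand): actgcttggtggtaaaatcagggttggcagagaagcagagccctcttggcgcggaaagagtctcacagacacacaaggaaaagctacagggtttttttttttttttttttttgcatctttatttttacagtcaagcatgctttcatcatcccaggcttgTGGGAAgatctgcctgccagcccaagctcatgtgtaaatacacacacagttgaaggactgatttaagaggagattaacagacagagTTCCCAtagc
Spin4 (chrX:95026678-95026932, minus strand): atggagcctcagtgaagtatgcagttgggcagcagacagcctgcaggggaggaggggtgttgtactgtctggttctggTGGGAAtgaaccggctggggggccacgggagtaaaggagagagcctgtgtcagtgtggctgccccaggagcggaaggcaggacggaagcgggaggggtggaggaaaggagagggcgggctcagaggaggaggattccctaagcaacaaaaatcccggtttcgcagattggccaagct
Rdh9 (chr10:127776155-127776409, plus strand): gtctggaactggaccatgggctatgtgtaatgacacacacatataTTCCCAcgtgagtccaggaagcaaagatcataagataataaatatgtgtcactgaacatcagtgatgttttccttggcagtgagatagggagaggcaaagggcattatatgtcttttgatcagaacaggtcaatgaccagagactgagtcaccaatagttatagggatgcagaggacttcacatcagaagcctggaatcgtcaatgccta
The Wfdc3 promoter holds the longer form at 2 places, both on the reverse strand, beginning 109 and 9 bases before the start. The Pnliprp1 promoter holds 2 cores, of which the one nearer the start lacks the extra base, and the Spin4 and Rdh9 promoters hold 1 each. A match is a description of these letters and was not tested as a binding site.

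Wfdc3, a secreted protein of the WAP family of protease inhibitors, changed the most of the named genes that passed. Its level was -4.23, -3.77 and -4.35 on the GFP arrays and 0.89 and 1.51 on the NICD1&2 arrays. The difference was 5.32 ± 0.23 (log2, SE), a 39.8-fold rise (adjusted p = 8.9e-05). A second probe of the gene, below background on all GFP arrays, was at least 12.4-fold higher. Both NICD1&2 arrays lay far above every GFP array. The sizes of such differences depended on the processing. The normexp setting adds an offset of 50 to each signal and was quantile normalized as well. With it Wfdc3 differed by 2.67 (6.34-fold), Krt79 by 1.9, Scgb1a1 by 1.74 and Pfkfb4 by 1.68 (log2). Scgb1a1, the main secretory protein of airway club cells, was at -4.30, -4.40 and -3.90 with GFP and at -0.56 and 0.36 with both NICDs, a 17.1-fold rise (adjusted p = 0.0189). The groups were well apart, although the NICD1&2 arrays differed from each other by more than the GFP arrays did. Krt79, a type II keratin of skin appendage ducts, was at -3.21, -2.82 and -3.24 with GFP and at 0.23 and 0.55 with both NICDs, an 11.1-fold rise (adjusted p = 0.000553).

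Several of the most induced genes were below detection in the GFP livers, so that their fold changes are lower bounds, set against the lowest signal well above background on each array. The bounds hold for the signals as scaled here and not under normexp with its offset and quantile normalization. They are set on the group means and do not cover the spread between arrays. Tmprss7, a membrane-anchored serine protease, was at -5.90, -5.00 and -4.59 on the GFP arrays, with 0 of 3 well above background, and at -0.96 and -0.81 on the NICD1&2 arrays. It was at least 16.2-fold higher (adjusted p = 0.00728). Pnliprp1, a lipase relative made by the acinar cells of the pancreas, was at -5.50, -5.97 and -6.51 against -2.55 and -1.96, and was at least 7.67-fold higher (adjusted p = 0.00921). Both genes passed from background to clear signal on each NICD1&2 array. Hs6st2, a heparan sulfate sulfotransferase, was at least 2.64-fold higher (adjusted p = 0.0453), while a second probe of it differed by 1.29 (log2). Slc10a6, a transporter of sulfated steroids related to the bile acid carriers, was at least 2.51-fold higher (adjusted p = 0.00108), and only 1 of the NICD1&2 arrays was well above background. With normexp the differences were 1.23 (log2) for Tmprss7, 0.63 for Pnliprp1, 0.32 for Hs6st2 and 0.18 for Slc10a6, and the last had an adjusted p of 0.252 in limma.

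Pnliprp1 was read beside a list of 24 exocrine pancreas genes. Of its 23 genes on the array, 12 passed the filter, Pnliprp1 and Reg1 were altered and higher (16.7%, against 4.09% of all genes), and the NICD1&2 arrays lay above all GFP arrays for 4 (33.3%, against 26.0%) and below for 0 (against 10.9%). Prss1, Cpa1 and Pnlip, which define acinar cells, were not among the 12, but 9 of the 12 were well above background on all 11 arrays. Of the 12, 9 differed in the positive direction, against 66.6% of all genes, and 3 in the negative. Reg1, a secreted protein of acinar cells, was well above background on 0 of the 5 arrays. The list median, relative to the GFP mean, was -0.161 to 0.115 on the GFP arrays and 0.236 and 0.132 on the NICD1&2 arrays, above all 3, and without GFP 1 the difference in the median was 0.076 (log2).

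Pfkfb4, which sets the level of the main allosteric activator of glycolysis, was at -2.51, -2.98 and -2.62 with GFP and at 0.23 and 0.30 with both NICDs, a 7.82-fold rise (adjusted p = 0.00164). Spp1, the secreted matrix protein osteopontin, was already bright, at 2.63, 2.83 and 3.20, and reached 4.95 and 5.28, a 4.70-fold rise (adjusted p = 0.0108). Defb1, an antimicrobial beta-defensin of epithelia, rose 4.81-fold, from -1.51, -1.83 and -1.48 to 0.82 and 0.50 (adjusted p = 0.00452). The ranges of the 2 groups did not overlap for any of these genes, which was a condition for naming them. Akr1b7, an aldo-keto reductase, rose 3.96-fold, and Ckap2, a protein of spindle microtubules, rose 3.83-fold. Tuba8, an alpha-tubulin, rose 3.58-fold, and Rdh9, of the retinol dehydrogenase family, rose 2.88-fold, with adjusted p-values for these 4 genes between 0.0407 and 0.0442. Spin4, a spindlin family protein, was below background on all 3 GFP arrays and at least 2.64-fold higher (adjusted p = 0.0187). Its probe, well above background on both NICD1&2 arrays and on 0 of the 9 others, passed the filter only through the group where it was high, so that it had to differ.

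The 7 other induced genes changed less. Plin5, a lipid droplet coat protein of oxidative tissues, was at 4.65, 4.62 and 4.66 on the GFP arrays and at 6.10 and 6.12 on the NICD1&2 arrays, a difference of 1.47 ± 0.15 (log2, SE, adjusted p = 0.0134), and its second probe gave 1.42. The values within each group differed by a small fraction of the gap between the groups. Prx, the periaxin of myelin, differed by 1.22 (0.79 on its second probe) and Lonrf3, a RING finger protein, by 1.15 (0.51 on its second probe). Gm826 differed by 1.13 and Slc35g1, a solute carrier, by 1.0. Birc5, the mitotic and anti-apoptotic protein survivin, differed by 0.97 and Adamtsl2, a secreted glycoprotein, by 0.75. Their adjusted p-values lay between 0.0175 and 0.0473.

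**Figure D2:**
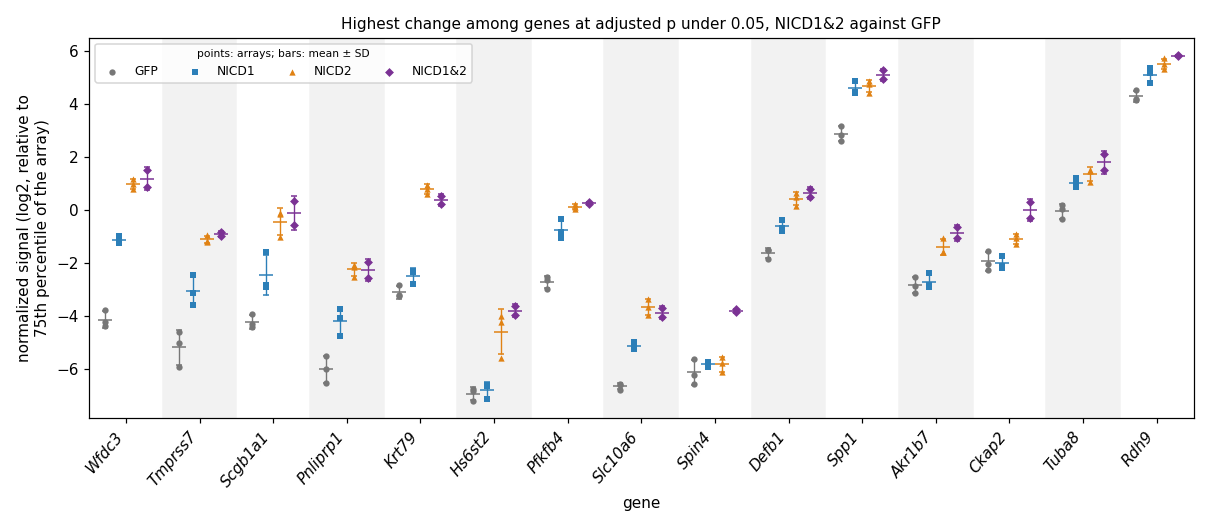
Level (log2 relative to the 75th percentile of the array) of the 15 named genes with the highest change among those at an adjusted p under 0.05, for each array as a point, with the mean and SD of the group. The NICD1&2 arrays lie above all GFP arrays for each gene, as their choice required. The lowest NICD1&2 mean is that of Slc10a6, -3.86 against -6.64 with GFP, and the highest that of Rdh9, 5.83 against 4.30.

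A further 5 unnamed probes were also higher, and the largest difference of the whole comparison was on one of them. A_66_P115236 was at -4.44, -3.95 and -3.74 on the GFP arrays and at 1.69 and 2.42 on the NICD1&2 arrays, a difference of 6.10 ± 0.29 (log2, SE, adjusted p = 0.000108). It stood at 3.93 in the NICD1 group and at 5.87 in the NICD2 group, each as a difference from the same GFP arrays.

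Of the 7 reduced genes, 6 were below background on both NICD1&2 arrays. Kdm4a, a histone lysine demethylase, was at -4.36, -3.98 and -4.09 on the GFP arrays and at -6.25 and -6.19 on the NICD1&2 arrays, where 0 of 2 were well above background. It was at least 1.65-fold lower (adjusted p = 0.00327), but the other, detected probe of the gene differed by 0.03 (log2), so that the probes disagree. Polh, the translesion DNA polymerase eta, was at -3.80, -3.80 and -3.76 against -5.29 and -5.08 and was at least 2.11-fold lower (adjusted p = 0.00736), while its second probe differed by -0.35. For both genes the NICD1&2 arrays lay below every GFP array on 1 probe only. With normexp neither passed, at -0.23 and -0.17 (log2, adjusted p = 0.0935 and 0.167), and Srgap3, Zfp872, Prx and Spin4 also lost their calls, with adjusted p-values in limma of 0.0715, 0.153, 0.11 and 0.137.

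Dusp10, a phosphatase that inactivates stress-activated MAP kinases, was at -2.87, -3.08 and -2.91 with GFP and at -4.20 and -4.70 with both NICDs, below background, and was at least 2.60-fold lower (adjusted p = 0.0427). Srgap3, a GTPase-activating protein of Slit-Robo signalling, was at least 2.41-fold lower, and Asb2, a subunit of ubiquitin ligases, at least 2.34-fold lower. The zinc finger gene Zfp872 was at least 1.36-fold lower, with 1 of 3 GFP arrays well above background. Rnf152, a ubiquitin ligase of the lysosome, was the one reduced gene detected on all 5 arrays. It was at 0.50, 0.48 and 0.14 against -0.80 and -0.93, a 2.36-fold fall (adjusted p = 0.0187), and its second probe gave -0.95. Of the next genes in order of P, Tlr5, the receptor for bacterial flagellin, differed by -1.08 ± 0.15 (log2, SE, adjusted p = 0.058) and the transcription factor Rfx4 by -1.90 ± 0.28 (adjusted p = 0.0617). Zfp719 differed by -0.92 (adjusted p = 0.0712), while its other probe gave 0.12.

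**Figure D3:**
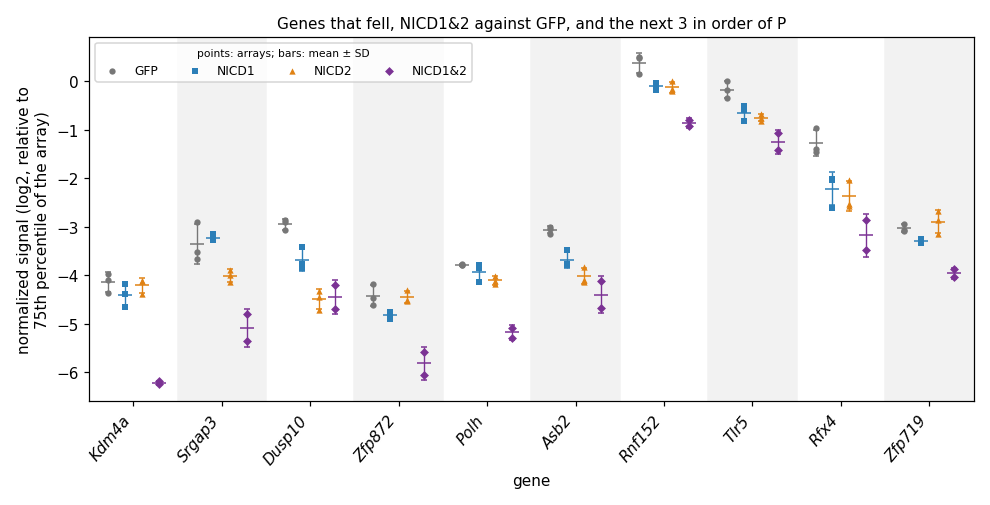
Level (log2 relative to the 75th percentile of the array) of the 7 named genes that fell and the next 3 in order of P, for each array as a point, with the mean and SD of the group. The NICD1&2 arrays lie below all GFP arrays for each gene, as their choice required. For all but Dusp10 and Asb2, the NICD1&2 arrays also lie below all arrays of the NICD1 and NICD2 groups.

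The vectors themselves could not be read from the Notch1 and Notch2 probes. Notch1 was at 0.69, 0.66 and 0.30 on the GFP arrays and at 1.1 and 0.32 on the NICD1&2 arrays (exact permutation p = 0.8, two-sided; the smallest that 2 arrays against 3 allow is 0.1). Notch2 was at 1.86, 1.66 and 1.77 against 1.77 and 1.74 (exact permutation p = 1.0). The groups overlapped for both receptors. Where these probes lie in the transcripts is not given in the sources used here, and a probe outside the intracellular domain or for a part the vector lacks checks nothing.

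Of the 30 Notch target genes listed, 25 were tested, and Spp1 rose. Here and below each gene of a list stands on 1 probe, the one with the highest mean level over the 11 arrays. Taken so, 24 of all 16632 genes (0.144%) passed the adjusted p, 4.09% were altered and higher and 1.06% altered and lower. Without GFP 1 these shares were 1.82% and 1.34%, and the counts without GFP 1 below are to be read against them. Of the 25 targets, 5 were altered and higher and 0 altered and lower, and the count of 5 was the same without GFP 1. At an unadjusted P under 0.05 in limma, 10 were higher (40%) and 2 lower (8%), against 11.9% and 4.91% of all genes. The 2 lower were Dtx1, at -0.72 (log2, adjusted p = 0.16), and Heyl, at -0.64 (adjusted p = 0.318). Nrarp, the ankyrin repeat feedback inhibitor of the NICD complex, was at -6.93, -6.43 and -4.60 on the GFP arrays, all below background, and at -1.86 and -1.85 on the NICD1&2 arrays. It was at least 8.34-fold higher and the groups did not overlap, but its adjusted p in limma was 0.0712. That value rests on the spread of all groups, with an SD of 1.22 (log2) with GFP, 0.77 with NICD1 and 0.31 with NICD2. Hes1, the repressor most often used to read the pathway, differed by 1.36 ± 0.50 (log2, SE, adjusted p = 0.28), with NICD1&2 values of -1.11 and -1.15 above GFP values of -1.77, -2.64 and -3.06. Sox9, a transcription factor of duct cells, differed by 1.16 ± 0.31 (adjusted p = 0.195), or by 0.58 on a second probe, and Cdkn1a, the p21 inhibitor of cyclin-dependent kinases, by 1.84 ± 0.44 (adjusted p = 0.166), or by 1.16 on a second probe. The NICD1&2 arrays lay above all GFP arrays for 11 of the 25 genes, 44.0%, against 26.0% of all genes tested, and below for 1, against 10.9%. The median of the list was 0.435 (log2) over both arrays. It was 0.209 on NICD1&2 1 and 0.623 on NICD1&2 2.

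The receptors, ligands and machinery of the pathway gave small values. Of 8 receptors and ligands tested of 10 listed and 33 of 34 signalling components, 0 passed the adjusted p in limma and 0 met the study's definition, and at an unadjusted P under 0.05 the counts were 1 higher among the receptors and ligands and 5 higher (15.2%) and 3 lower (9.09%) among the components, against 11.9% and 4.91% of all genes. Their medians were 0.022 and 0.087 (log2), below the 0.116 of all genes, and both turned negative after quantile normalization.

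Among the bile duct markers Spp1 alone passed the test. Of 22 tested of 24 listed, 4 were altered and higher and 0 altered and lower, and the altered count was 2 without GFP 1. The other 3 were Sox9, Krt23, a keratin of stressed and ductular epithelium, at 0.87 ± 0.32 (log2, SE, adjusted p = 0.282), and Cldn4, a tight junction claudin, at 1.24 ± 0.62 (adjusted p = 0.377). Krt7 and Krt19, the keratins that define duct cells and which were looked at for that reason after their values were seen, differed by 0.63 (adjusted p = 0.41) and 0.29 (adjusted p = 0.571), and the groups overlapped for both. In bulk liver, more cells of a type and more RNA per cell cannot be told apart. The list median was -0.067 to 0.146 relative to the GFP mean on the GFP arrays and 0.235 and 0.440 on the NICD1&2 arrays.

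Of 21 secretory epithelium genes tested of 27 listed, Wfdc3 and Scgb1a1 rose, and Slpi, Muc5b and Agr2 met the study's definition with adjusted p-values of 0.381, 0.385 and 0.427. The altered count of 5 was 4 without GFP 1. Slpi, a secreted protease inhibitor, ran from -1.37 to 0.35 on the GFP arrays and was at 0.04 and 1.88 on the NICD1&2 arrays, so that the groups overlapped, and its second probe gave 0.11. Muc5b, a gel-forming mucin, and Agr2, which helps to fold mucins, were both lowest on GFP 1, and the list median was 0.422 (log2), or 0.274 without GFP 1. The list had been drawn up with its induced members known, and its counts do not bear on their direction. Of 12 keratins tested, Krt79 rose and 4 were altered and higher, or 1 without GFP 1. Krt8 and Krt18, the keratins of hepatocytes, named here after their values were seen, differed by 0.15 and -0.04 (log2).

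Target genes of p53, the transcription factor of the DNA damage response, were mostly higher, but none passed the adjusted p in limma. All 30 were tested, 14 were higher and 0 lower at an unadjusted P under 0.05, against 11.9% and 4.91% of all genes, and 4 were altered and higher. Of the 30, both NICD1&2 arrays lay above all GFP arrays for 16, or 53.3%, and below for 1, against 26.0% and 10.9% of all genes. Cdkn1a was at 1.19, 1.39 and 2.17 on the GFP arrays and at 3.26 and 3.58 on the NICD1&2 arrays (exact permutation p = 0.1, two-sided). Eda2r, a receptor of the tumour necrosis factor family, was at -1.42, -1.25 and -0.99 against 0.04 and 0.24, a difference of 1.36 ± 0.19 (log2, SE) that missed the threshold at an adjusted p of 0.052, and its second probe gave 0.63. Phlda3, an inhibitor of Akt, differed by 1.32 ± 0.38 (adjusted p = 0.21) and Tnfrsf10b, a death receptor, by 0.97 ± 0.22 (adjusted p = 0.152), or by 1.47 on a second probe. For all 4 the groups were separate. The list median was 0.389 (log2), 0.347 without GFP 1, and 0.314 and 0.599 on the 2 NICD1&2 arrays. Against the same GFP arrays the list median was -0.213 with NICD1 alone and 0.174 with NICD2 alone.

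Mitotic genes gave a mixed picture. Of 43 G2/M genes tested of 54 listed, Ckap2 and Birc5 rose, and the median was 0.272 (log2), but it was 0.039 without GFP 1. Cdk1, the kinase that drives entry into mitosis, was at -3.83, -3.34 and -3.76 with GFP and at -2.86 and -3.86 with both NICDs, and only 1 of the NICD1&2 arrays was well above background (exact permutation p = 0.7, two-sided). One NICD1&2 array lay above and the other below every GFP array. Of 47 S phase genes, 1 was altered and higher, Rrm2, a subunit of ribonucleotide reductase, at 1.0 ± 0.20 (log2, SE, adjusted p = 0.131), and 1 altered and lower, and the median of 0.1 was near that of all genes. Of 20 cell cycle inhibitors, Cdkn1a and Gadd45g, a stress-response gene, were altered. Gadd45g ranged from 1.92 to 6.37 on the GFP arrays and was at 6.43 and 7.36 on the NICD1&2 arrays (adjusted p = 0.346). Of the cyclins and cyclin-dependent kinases, 0 of 19 were altered, with 4 higher (21.1%) and 1 lower (5.26%) at an unadjusted P under 0.05, against 11.9% and 4.91% of all genes. Among apoptosis genes, Tnfrsf10b alone of 29 pro-apoptotic and Birc5 alone of 18 anti-apoptotic genes were altered.

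In metabolism, fatty acid oxidation genes were mostly higher. All 36 were tested and all 36 differed in the positive direction, against 66.6% of all genes, and 35 of 36 did so without GFP 1. After quantile normalization 28 of 36 did, against 52.3% of all genes. The NICD1&2 arrays lay above all GFP arrays for 24, or 66.7%, and below for 0, against 26.0% and 10.9% of all genes. None passed the adjusted p in limma, and 9 were higher and 0 lower at an unadjusted P under 0.05, against 11.9% and 4.91% of all genes. Acot1, a thioesterase of fatty acyl-CoA, was at 4.38, 4.36 and 3.57 on the GFP arrays and at 5.67 and 5.60 on the NICD1&2 arrays, a difference of 1.53 ± 0.27 (log2, SE, adjusted p = 0.0988). Its NICD1&2 values were tight and above each GFP array. The fatty acid omega-hydroxylases Cyp4a31, Cyp4a10 and Cyp4a14, all targets of PPAR-alpha, differed by 1.43, 1.16 and 1.84 (adjusted p = 0.275, 0.337 and 0.39). Each was lowest on GFP 3, at 3.92, 2.39 and -4.88. GFP 1 and GFP 2 were at 5.91 and 5.72, 4.37 and 4.16, and -0.95 and -2.09 for the same genes in turn. For Cyp4a14 the groups overlapped. Closely related Cyp4a genes can share signal on an array. The list median was 0.256 (log2), with 0.225 and 0.376 on the NICD1&2 arrays, and it was 0.021 with NICD1 alone and 0.011 with NICD2 alone against the same GFP arrays.

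Cholesterol synthesis and uptake genes were mostly lower. Of 28 tested of 31 listed, 20 differed in the negative direction, and the NICD1&2 arrays lay below all GFP arrays for 12, or 42.9%, against 10.9% of all genes. None passed the adjusted p in limma or met the study's definition, and 6 were lower (21.4%) and 2 higher (7.14%) at an unadjusted P under 0.05, against 4.91% and 11.9% of all genes. The median was -0.182 (log2), -0.144 without GFP 1 and -0.301 after quantile normalization. It was -0.203 with NICD1 alone and -0.206 with NICD2 alone. In the lipogenesis list, Lpin1, a phosphatidate phosphatase and coactivator, was at 2.54, 3.12 and 3.84 with GFP and at 5.50 and 5.05 with both NICDs, a difference of 2.11 ± 0.43 (log2, SE, adjusted p = 0.127), while 2 other probes gave 1.19 and 2.09. Plin4, a lipid droplet protein, differed by 0.95 ± 0.28 (adjusted p = 0.223), and the median of the 34 genes was -0.010. Of 29 glycolysis genes, Pfkfb4 alone rose or was altered, and the median was 0.183. Of 25 bile acid genes, Slc10a6 rose and Slc10a2, the apical sodium-dependent bile acid transporter, differed by 0.94 ± 0.17 (adjusted p = 0.0988).

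The genes of hepatocyte identity and zonation gave small differences. Among 28 perivenous genes, 28 periportal and urea cycle genes, 22 gluconeogenesis genes, 30 hepatocyte markers, 25 hepatocyte transcription factors and 33 xenobiotic genes, 0 were called in limma and 0 were altered. At an unadjusted P under 0.05, 5 of the perivenous genes were lower (17.9%) and 1 higher, and 6 of the periportal genes were higher (21.4%) and 2 lower, against 4.91% lower and 11.9% higher among all genes. In the other 4 lists 2 to 5 genes were higher (6.67% to 22.7%) and 0 to 2 lower (up to 6.67%). The NICD1&2 arrays lay above all GFP arrays for 13 of the 30 hepatocyte markers (43.3%) and 12 of the 28 periportal genes (42.9%), against 26.0% of all genes, and below for 8 of the 28 perivenous genes (28.6%), against 10.9%. The list medians lay between -0.057 and 0.153 (log2) and, apart from the perivenous list, changed sign after quantile normalization.

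Interferon response genes were mostly lower. Of 37 tested of 40 listed, 0 were called, 8 were lower and 1 higher at an unadjusted P under 0.05 in limma, against 4.91% and 11.9% of all genes, and 3 were altered, all lower. Oasl1, of the oligoadenylate synthetase family, was at 3.04, 3.00 and 3.00 on the GFP arrays and at 2.03 and 2.02 on the NICD1&2 arrays, a difference of -0.99 ± 0.18 (log2, SE, adjusted p = 0.0988). The arrays of these 2 groups had almost no spread, while the NICD1 arrays ran from 2.45 to 3.05 and the NICD2 arrays from 2.19 to 2.50. Ddx60, an RNA helicase, and Gbp5, a guanylate-binding protein, differed by -1.48 and -0.95 (adjusted p = 0.252 and 0.277), and a second Ddx60 probe gave -0.79. The NICD1&2 arrays lay below all GFP arrays for 11 genes, or 29.7%, and above for 1, against 10.9% and 26.0% of all genes. The list median was -0.208 (log2), with -0.237 on NICD1&2 1 and -0.041 on NICD1&2 2, while the GFP arrays ran from -0.212 to 0.155, so that NICD1&2 2 lay within their range. The list median was -0.289 with NICD1 alone and -0.204 with NICD2 alone. Among 24 inflammatory cytokine genes, Il1b, interleukin 1 beta, was at -0.45, -0.74 and -0.40 against -2.37 and -2.17, a difference of -1.74 ± 0.41 (adjusted p = 0.163). A second Il1b probe gave -0.93. Ifng, undetected with both NICDs, was at least 1.67-fold lower (adjusted p = 0.376), and Il12b differed by 1.04 (adjusted p = 0.27).

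Markers of other cells were counted beside these results, and their part in them was not tested. Of 30 Kupffer cell and monocyte genes, 1 was altered, Itgam, at -0.98 ± 0.27 (log2, SE, adjusted p = 0.208), while its other probe gave 1.21. The list median ran from -0.294 to 0.232 relative to the GFP mean on the GFP arrays and was -0.025 and -0.009 on the NICD1&2 arrays. Of 28 lymphocyte genes, 1 was altered, Ncr1 at 1.02 ± 0.64, and of 32 sinusoidal endothelial genes 1, Lyve1 at 0.93 ± 0.22, with adjusted p-values of 0.448 and 0.16, and without GFP 1 the lymphocyte count was 0. Among 37 stellate cell and matrix genes Spp1 alone was altered, and the medians were -0.118 and 0.236 on the NICD1&2 arrays. Red blood cell genes separated the NICD1&2 arrays from each other, with medians of -0.043 and 0.528 over 9 genes. The immediate early genes did so too, at -0.470 and 0.287 over 33 genes, with -0.358 to 0.367 on the GFP arrays.

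**Figure D4:**
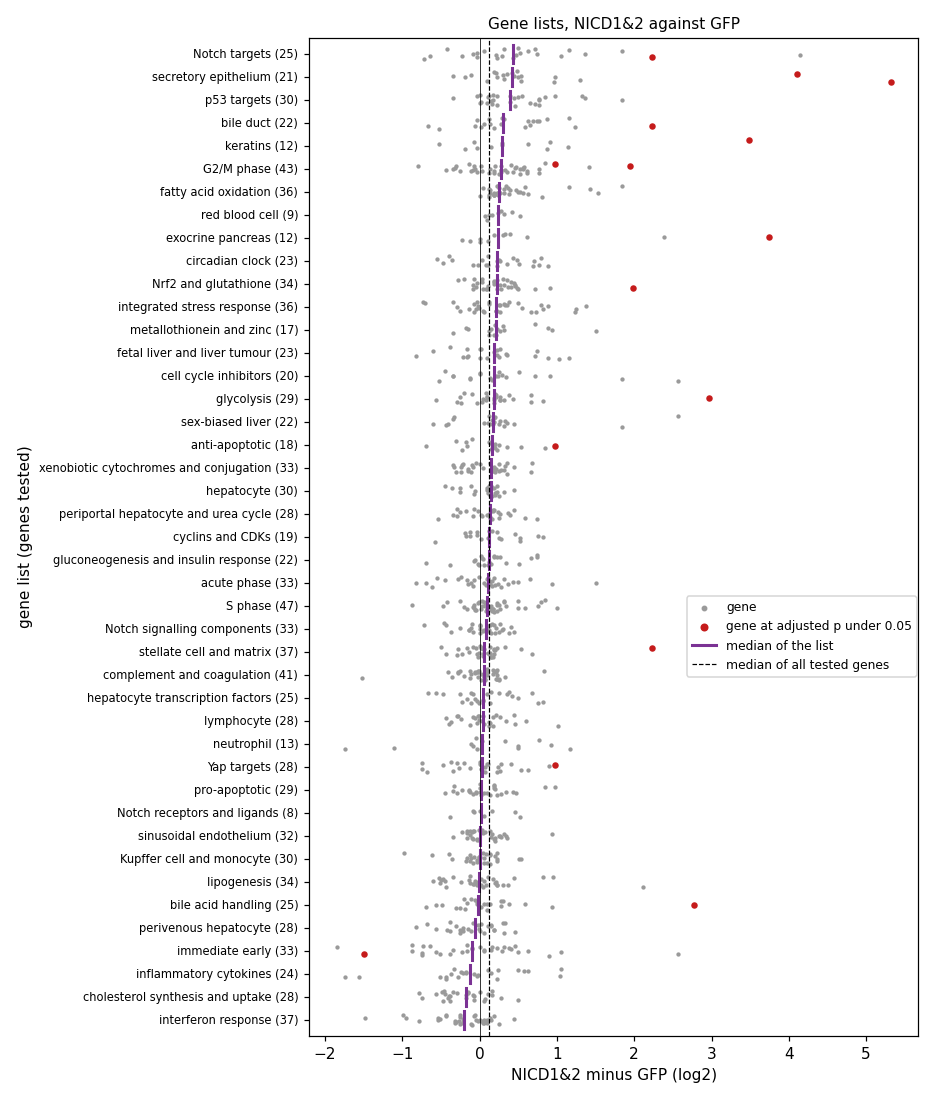
Difference between the NICD1&2 and GFP groups (log2, horizontal axis) for each tested gene of the 43 lists, ordered by the list median, which is a purple bar, with called genes in red. Notch targets lie at the top with a median of 0.435 and interferon response genes at the bottom with -0.208, and the dashed line is the median of all tested genes, 0.116.

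The NICD1&2 group was then compared with each single NICD group. Against the NICD1 group, 5 probes (0.0139%) passed an adjusted p of 0.05, 3 higher and 2 lower, and against the NICD2 group 1 probe (0.00277%), which was lower. Krt79 was 2.85 ± 0.21 (log2, SE) higher with both NICDs than with NICD1 alone (adjusted p = 0.00938), and Wfdc3 was 2.31 higher (adjusted p = 0.0359). The unnamed probe A_55_P2718294 was at least 3.15-fold higher (adjusted p = 0.0359), but it was well above background on the NICD1&2 arrays alone and so had passed the filter only through them. Kdm4a, undetected with both NICDs, was at least 1.37-fold lower than in the NICD1 group (adjusted p = 0.0359) and at least 1.58-fold lower than in the NICD2 group (adjusted p = 0.0297). Polh, also undetected with both, was at least 1.91-fold lower than in the NICD1 group (adjusted p = 0.0359). Each stands on the dim probe described above. These counts rested on single arrays. Without NICD1&2 1 they were 211 and 122, of which 18.5% and 6.6% were higher with both NICDs, and without NICD1&2 2 both were 0. Without 1 of the other 9 arrays they ranged from 0 to 9 and from 0 to 1.

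Of the 15 most induced genes at an adjusted p under 0.05, 14 were detected in the NICD2 group. They differed from it by -0.41 to 1.09 (log2), 0 of the differences passed the adjusted p, and the 95% confidence interval held 0 for 13. Wfdc3 differed from the NICD2 group by 0.21 (log2, 95% confidence interval -0.31 to 0.72), Tmprss7 by 0.21 (-0.68 to 1.1) and Pnliprp1 by -0.02 (-0.84 to 0.80). Krt79 differed by -0.41 (-0.88 to 0.06), Pfkfb4 by 0.13 (-0.35 to 0.61) and Slc10a6 by -0.22 (-0.64 to 0.20). The intervals of these 6 genes still allow differences of up to 1.1, so that equal levels are not shown. Against the NICD1 group, the 12 genes detected there were 0.52 to 2.85 higher, and 2 of them, Wfdc3 and Krt79, passed. The GFP arrays are shared by all 3 comparisons with GFP, so the values are given side by side without a test. Wfdc3 stood 3.01, 5.11 and 5.32 above GFP with NICD1, with NICD2 and with both, and Krt79 stood 0.63, 3.89 and 3.48 above it. Spp1 stood at 1.71, 1.81 and 2.23.

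For 10 of the 22 induced genes both NICD1&2 arrays lay above all 9 other arrays, which held for 8.0% of all genes tested, and for 5 of the 7 reduced genes both lay below all 9, against 2.78%. These genes had been chosen for their difference from 3 of the 9 arrays, so the shares are a description. The induced genes named next were picked after their values were seen. Spin4, at -3.73 and -3.85 on the NICD1&2 arrays, was one of the 10, but its filter fixed this, and without it the count was 9 of 21. It was at least 3.0-fold above the NICD1 group and at least 2.47-fold above the NICD2 group, both below background (adjusted p = 0.0841 and 0.191). Ckap2 was 2.01 higher than in the NICD1 group (log2, 95% confidence interval 1.43 to 2.59, adjusted p = 0.0841) and 1.09 higher than in the NICD2 group (0.50 to 1.67, adjusted p = 0.548). Prx was 0.54 and 1.07 higher (adjusted p = 0.332 and 0.191) and Plin5 1.1 and 0.49 higher (adjusted p = 0.104 and 0.564). For these genes the values with both NICDs lay above all others, but no difference passed the adjustment, which is over all 36052 probes. Of the oxidation genes, Acot1 stood 0.38 and 0.10 above GFP with NICD1 and NICD2 alone and 1.53 with both, and its differences from the single groups were 1.16 and 1.43 (adjusted p = 0.332 and 0.522).

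**Figure D5:**
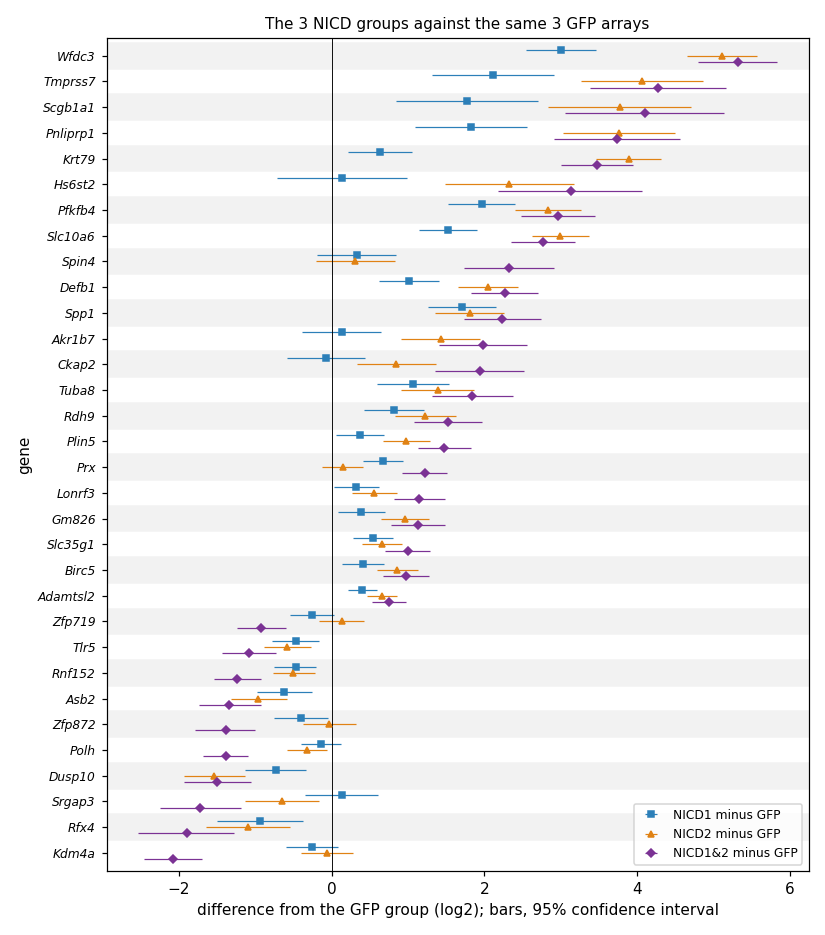
Difference from the GFP group (log2, horizontal axis) in the NICD1, NICD2 and NICD1&2 groups for the 32 genes called or next in order of P, with 95% confidence intervals from limma, all against the same 3 GFP arrays and drawn from the measured signals also where a gene was below background. Wfdc3, at 5.32 with both NICDs, lies at the top with 5.11 for NICD2 alone and 3.01 for NICD1 alone, and Rnf152, at -1.24 with both, stands at -0.47 for NICD1 and -0.50 for NICD2.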

How the data were processed

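Liver RNA was hybridised to 11 one-colour Agilent mouse arrays. The methods name RNeasy Micro kits and an 8x44K format, the labels name NucleoSpin RNA XS, and each file holds 62976 spots. The intensity values deposited by the authors are processed signals from Feature Extraction 11.5.1.1, background-subtracted per the file headers. The authors also deposited a log2 table, which equals log2 of those signals minus the 75th percentile of the array within 0.05.

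Here log2 of the processed signal minus the array's 75th percentile was taken over 59305 non-control spots, and spots of a probe were averaged. The 36052 probes well above background on 2 or more arrays were fitted with limma 3.58.1 in R 4.3.3, with 1 mean per group over all 11 arrays. P-values were adjusted by Benjamini-Hochberg over all probes. Altered means an unadjusted P under 0.15 with a fold change over 1.8, the study's definition, whose test is not named in the sources used here. Probes were named through RefSeq accessions (GRCm38.p6), which gave 32989 of 56605 probes a gene. No spot was saturated, 57.0 to 62.0% of spots were well above background, and the number of arrays limits the precision.

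A probe not well above background on any array of a group has a bound, the mean of the bright group over, for each array of the dim group, the higher of the probe's own value and the lowest signal well above background. The bound does not cover the spread between arrays.

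Named were the 15 highest and lowest genes at an adjusted p under 0.05 whose NICD1&2 arrays lay on 1 side of all GFP arrays, filled to 10 in order of P. Added were the 4 genes Notch1, Notch2, Cdk1 and Cdkn1a, list members that were called or among the 4 next altered by P, and genes called between NICD groups. The 7 remaining called genes were added after their values were seen. The comparison and the 43 gene lists (1117 genes) were chosen with earlier results of these data known. The fit was tested on simulated data.

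Alternatives were quantile and all-detected 75th percentile scaling, the deposited table, other filters and thresholds, array weights and unmoderated variances. Another was normexp background correction on median signals with offset 50, followed by quantile normalization, and is called normexp throughout. Others were replicate and slide blocks, each slide alone and leaving out each array.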

Additional observations from a re-analysis of the deposited data

How the results depend on the processing

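Of the 36 probes at an adjusted p under 0.05 between NICD1&2 and GFP, 26 were shared after quantile normalization, which also gave 36. The count was 335 with normexp, 23 with no filter, 115 with only probes well above background on all arrays, 15 with array weights, 16 with unmoderated variances and 132 at an adjusted p under 0.1. It was 0 with the 2 groups alone (3729 at an unadjusted p under 0.05 in limma) and 0 within each slide, where the lone arrays are taken to vary like the other groups. Leaving out each array gave 4 to 237. The altered count of 2250 became 173 with normexp, 5090 with no filter, 580 with probes detected on all arrays, 1418 with array weights, 3408 within slide 2, 855 at a P under 0.05 and a fold over 2, 226 with an adjusted p under 0.15, and 1331 to 3599 without single arrays. Higher probes were 65.2% of 1996 under the 75th percentile of detected probes. The count of 5 against NICD1 became 3 after quantile normalization, 49 with normexp, 1 with no filter, 10 with the filter of all arrays, 1 with array weights and 10 with the slide as a block. It was 0 with the compared groups alone, with unmoderated variances and within each slide (3597, 4643, 1585 and 4230 at an unadjusted p under 0.05), and 0 to 211 without single arrays. The count of 1 against NICD2 was 0 with normexp, either other filter, the compared groups alone, array weights, unmoderated variances, the slide block and within each slide (1289 to 6637 at an unadjusted p under 0.05), and 0 to 122 without single arrays. With a replicate block it was 27 (22 shared) and 2591 altered against GFP, 0 against NICD1 and 0 against NICD2 (3764 and 2935 at an unadjusted p under 0.05). The replicate numbers do not pair the arrays, since deviations of 15 same-numbered pairs correlated at -0.426 to 0.184, over 0.1 for 6. The 3 genes Notch1, Notch2 and Cdk1 changed sign. Notch2 was 0.0141 (log2) with array weights, 0.0113 with the replicate block and 0.0158 within slide 1, and Cdk1 was -0.1037 within slide 2. Without single arrays Notch2 ran from -0.0547 to 0.0454, Cdk1 from -0.219 (without NICD1&2 1) to 0.7858 and Notch1 from -0.2324 (without NICD1&2 1) to 0.5491. No named gene that passed changed sign under these alternatives. For each slide alone and for leaving out single arrays this was fixed in advance, since the NICD1&2 arrays lay on 1 side of all GFP arrays. With normexp the log2 difference was over 1.5 times smaller for 21 of the 29 named genes that passed, and 7 of the 29 no longer passed. With the mean over all probes of a gene it was so for 2 of 10, and under each other alternative for 0. The causes were not tested.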

Other observations

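Stress-response lists were described by counts alone. Of 36 integrated stress response genes tested, 4 were altered and higher, Nupr1, Chac1, Ddit4 and Creld2, with adjusted p-values of 0.113 to 0.395, and the list median was 0.214 (log2), but -0.012 on NICD1&2 1 and 0.398 on NICD1&2 2. Of 34 Nrf2 and glutathione genes, Akr1b7 rose and Gss, the glutathione synthetase, differed by 0.91 ± 0.17 (log2, SE, adjusted p = 0.114). The metallothioneins Mt1 and Mt2, metal-binding proteins, differed by 0.94 and 1.51 (adjusted p = 0.335 and 0.288). Of 23 circadian clock genes, Ciart, a clock repressor, differed by 0.89 ± 0.20 (adjusted p = 0.153), and the median was 0.229.

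The median of 22 sex-biased liver genes was 0.175 (log2), and -0.029 after quantile normalization. Of 23 fetal liver and liver tumour genes, Gpc3, Sox9 and Spink1 were altered and higher, with adjusted p-values of 0.195 to 0.31. Without GFP 1 the count altered and higher was 2. Of 28 Yap targets, Birc5 rose and Ccn2, a matrix protein, differed by 0.9 (adjusted p = 0.379). Of 41 complement and coagulation genes, Cfd, complement factor D, differed by -1.52 ± 0.54 (adjusted p = 0.273). Of 33 acute phase genes, Mt1 and Mt2 alone were altered. Of 13 neutrophil genes, 1 was altered and higher and 2 altered and lower, Il1b and Retnlg.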
